A study of Homo sapiens with 10 samples.

Results

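The 9 genes described here encode enzymes that make or recycle the nucleotides a dividing cell needs. They are RRM1 and RRM2 (ribonucleotide reductase), TYMS, TK1 and DTYMK (thymidine nucleotides), CTPS1 and UCK2 (cytidine and uridine nucleotides), and PPAT and IMPDH2 (purines). They were chosen by symbol, with earlier results of these data known, and all 9 were found among the 28281 symbols of both count tables. The groups were A549 with APE1 knockout (KO), A549 WT, H1944 with APE1 knockout, and H1944 WT, with 3, 3, 2 and 2 libraries. Both are human lung adenocarcinoma (LUAD) cell lines, cultured with serum, and the labels name no treatment. APE1, encoded by APEX1, is the main endonuclease of base excision repair. The study's title asks about urea cycle transcription and DNA G-quadruplexes. The labels do not say whether the knockout libraries came from 1 clone or several.

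DNA synthesis needs deoxynucleotides, which cells make mostly by reducing ribonucleotides. Ribonucleotide reductase joins a large subunit, which binds the substrate and the regulators, to a small subunit, which carries the radical and rises in S phase. Thymidylate is made by methylation with a folate cofactor, or by salvage of thymidine. Proliferating tumour cells raise these enzymes, and several of them are targets of antifolates, fluoropyrimidines, gemcitabine and hydroxyurea.

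Total counts were 19578197 to 23336357 in A549 KO, 18314224 to 24358934 in A549 WT, 28950423 and 30219850 in H1944 KO, and 20754740 and 22144904 in H1944 WT. Levels are given in CPM, counts divided by library size, which was adjusted within each line by TMM, a trimmed mean that corrects for RNA composition. In H1944, APEX1 (chromosome 14, 20455191 to 20457772) had 87.0 and 87.6 CPM in KO, against 244 and 243 CPM in WT. In A549 it had 60.1, 62.9 and 108 CPM in KO, against 167, 254 and 237 CPM in WT, so the libraries did not overlap in either line. The log2 fold change of APEX1 was -1.48 in H1944 (edgeR adjusted p 6.43e-19). In A549 it was -1.51 and did not pass (SE 0.30, edgeR adjusted p 0.521), so a miss there does not show that a gene is unchanged. The A549 KO libraries are named 16, 65 and 66 after columns that carry no genotype. They were taken as KO because the labels leave no other A549 group for them. The A549 libraries also fell into 2 sets across genotype: KO 65 and WT 1 had 5945 and 4839 counts of the 28S ribosomal RNA gene RNA28SN4, and KO 16, KO 66, WT 2 and WT 3 had 0. Over all ribosomal RNA genes the order was the reverse: KO 16 and KO 66 held 14.2% and 7.19% of their counts there, and WT 2 and WT 3 held 6.45% and 6.46%, against 0.337% in KO 65 and 0.284% in WT 1. WT 2 and WT 3 were also nearly alike, with a chi-square of 1.90 per gene between their counts, where other A549 pairs of 1 genotype had 135 to 273. They differed by more than sampling noise and were kept as 2 libraries, but the A549 WT spread and the exact tests of 3 against 3 libraries may rest on fewer independent samples. A549 values are therefore also given within the sets. The H1944 libraries of 1 genotype were alike too, with 2.95 per gene in KO and 3.37 in WT. The H1944 SEs and p-values may likewise rest on fewer independent samples. The 8 epithelial markers had summed levels of 9017 to 22155 CPM in A549 KO, 8874 to 22403 CPM in A549 WT, 17510 to 17906 CPM in H1944 KO and 9876 to 10041 CPM in H1944 WT. In H1944 6 of the 8 fell and 2 rose, with a median log2 fold change of -2.51. The 7 lung adenocarcinoma markers were near 0 in most libraries and summed to 1.78 to 4.31 CPM in A549 KO, 0.922 to 2.11 CPM in A549 WT, 2.48 to 2.64 CPM in H1944 KO and 32.8 to 37.6 CPM in H1944 WT, and NKX2-1, the lung lineage factor, had 0 counts in H1944. The part of these marker differences in the results was not tested. Fibroblast markers summed to at most 26.2 CPM in any library and endothelial markers to at most 2.49 CPM. Leukocyte markers summed to 58.2 to 60.5 CPM in H1944 KO, 34.7 to 35.6 CPM in H1944 WT, 42.9 to 45.2 CPM in A549 KO and 38.6 to 50.3 CPM in A549 WT; CD3D and CD3E had 0 counts, and CD68 rose 1.94-fold in H1944.

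The promoters are shown because the study's title points to G-quadruplex DNA and because RRM1 and RRM2 moved together in H1944 while CTPS1 moved the other way. RefSeq (GRCh38.p14) gave 11 windows for 8 of the 9 genes, each from 250 bases before to 50 after a transcript start; IMPDH2 had none. The 250 bases before the start are printed 5′ to 3′ on the gene's strand. Capitals mark CCAAT boxes, TTTAAA, and TTTGAA (the CHR element of cell cycle promoters) on either strand, and for CTPS1 a G-quadruplex motif. That motif is 4 runs of at least 3 G with gaps of 1 to 7 bases, here on the opposite strand, so it reads as runs of C. The printed RRM2 window begins inside the motif stretch found at the upstream RRM2 start. It cuts that stretch, so the part it holds is left in lower case.
RRM1 (chr11:4094435-4094684, plus strand): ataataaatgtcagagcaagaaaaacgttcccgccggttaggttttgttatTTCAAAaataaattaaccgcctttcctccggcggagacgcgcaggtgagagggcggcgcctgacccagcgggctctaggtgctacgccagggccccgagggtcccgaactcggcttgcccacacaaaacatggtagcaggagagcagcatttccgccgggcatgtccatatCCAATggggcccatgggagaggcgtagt
RRM2 (chr2:10122489-10122738, plus strand, downstream of 2 starts): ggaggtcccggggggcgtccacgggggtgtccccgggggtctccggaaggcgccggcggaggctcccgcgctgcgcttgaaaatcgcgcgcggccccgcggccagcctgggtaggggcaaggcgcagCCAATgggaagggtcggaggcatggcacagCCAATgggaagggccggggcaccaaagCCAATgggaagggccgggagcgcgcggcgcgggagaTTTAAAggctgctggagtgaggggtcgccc
TK1 (chr17:78187053-78187302, minus strand, downstream of 2 starts): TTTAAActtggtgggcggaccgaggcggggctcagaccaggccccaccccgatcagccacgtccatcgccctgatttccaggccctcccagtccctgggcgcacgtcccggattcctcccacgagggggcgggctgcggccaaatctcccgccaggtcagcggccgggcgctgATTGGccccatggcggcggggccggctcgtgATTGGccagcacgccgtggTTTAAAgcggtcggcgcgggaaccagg
CTPS1 (chr1:40979446-40979695, plus strand, upstream of 2 starts): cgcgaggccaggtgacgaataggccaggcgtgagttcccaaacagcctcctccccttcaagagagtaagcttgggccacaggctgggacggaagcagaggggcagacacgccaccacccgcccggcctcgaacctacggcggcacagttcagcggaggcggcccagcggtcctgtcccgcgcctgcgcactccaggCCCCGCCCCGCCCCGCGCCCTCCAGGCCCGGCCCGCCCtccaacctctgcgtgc

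RRM2 held 3 CCAAT boxes, starting 123, 93 and 66 bases before the start, and a TTTAAA at 30 bases. TK1 held 2 CCAAT boxes, at 77 and 46 bases, and TTTAAA at 250 and 27 bases. RRM1 held 1 CCAAT box at 28 bases and 1 TTTGAA at 199 bases. A CCAAT box was found in 6 of the 11 windows (of RRM1, RRM2, TK1, DTYMK and UCK2), against 34.6% of all 35116 RefSeq windows. The G-quadruplex motif was found in 3 of the 11 (RRM2 at its upstream start, CTPS1 and UCK2), close to the 25% of all windows. An E2F site, searched as TTTCCCGC, TTTCGCGC, TTTGCCGC and TTTGGCGC on both strands, was found for TYMS alone, against 3.31% of all windows. An E-box (CACGTG) was found for PPAT alone, against 7.26% of all windows. TTTAAA was in 12.2% and TTTGAA in 15.2% of all windows. The searched motifs can overlap each other, and a match is a description of letters, not of binding.

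The first comparison asked what APE1 knockout does to ribonucleotide reductase. Both subunit mRNAs fell together in H1944, while in A549 the RRM2 level was lower in each KO library and the RRM1 level was not. RRM2, the small subunit whose supply limits the enzyme in S phase (chromosome 2, 10120698 to 10131419), had 112 and 120 CPM in H1944 KO, against 215 and 209 CPM in H1944 WT. RRM1, the large subunit (chromosome 11, 4094707 to 4138876), had 93.7 and 98.4 CPM in H1944 KO, against 167 and 172 CPM in H1944 WT. The KO libraries of both genes lay far below the WT libraries. The log2 fold change was -0.87 for RRM2 (SE 0.040, edgeR adjusted p 2.59e-14) and -0.82 for RRM1 (SE 0.040, edgeR adjusted p 6.86e-14), which is 0.547-fold and 0.566-fold. Both calls held in each of the 10 alternative analyses of H1944. In bulk RNA, fewer cells in S phase and less mRNA per cell cannot be told apart.

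In A549, RRM2 had 195, 113 and 148 CPM in KO 16, 65 and 66, against 270, 245 and 238 CPM in WT 1, 2 and 3. The KO libraries did not overlap WT, with means of 152 ± 41.2 CPM in KO and 251 ± 16.8 CPM in WT (SD, n = 3 each). The log2 fold change was -0.72 with an SE of 0.23, which did not pass over all genes (edgeR adjusted p 0.762), and the exact 2-sided permutation p was 0.1, the smallest that 3 against 3 libraries allow. RRM1 had 196, 148 and 164 CPM in A549 KO, against 197, 142 and 145 CPM in A549 WT, and the groups overlapped (log2 fold change 0.07, SE 0.21, edgeR adjusted p 0.995). Within the sets RRM2 differed by -1.25 for KO 65, -0.31 for KO 16 and -0.70 for KO 66 on the log2(CPM + 1) scale. RRM1 differed by -0.40, 0.45 and 0.19 in the same order, so its sign changed with the set. The fold change of RRM1 was also below 0 without KO 16 (-0.047) or without WT 2 (-0.012).

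The ratio of RRM2 to RRM1 counts needs no scaling between libraries. It was 0.994, 0.761 and 0.903 in A549 KO, against 1.37, 1.73 and 1.64 in A549 WT, so the KO libraries did not overlap WT (exact 2-sided permutation p 0.1, the smallest possible, and 0.5 after Benjamini-Hochberg adjustment over the 6 comparisons of 3 ratios in 2 lines). Within the set with 28S counts the ratio was 0.761 in KO 65 and 1.37 in WT 1. In H1944 it was 1.20 and 1.22 in KO, against 1.28 and 1.21 in WT, with overlapping libraries. The change of RRM1 itself, A549 minus H1944, was 0.87 on the log2 scale (SE 0.24) and did not pass (edgeR adjusted p 0.0655). It passed by DESeq2 (adjusted p 0.0113), without A549 WT 1 (0.0121) and with the library set as a covariate (0.0296). That of RRM2 was 0.12 (SE 0.28, edgeR adjusted p 0.861).

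**Figure D1:**
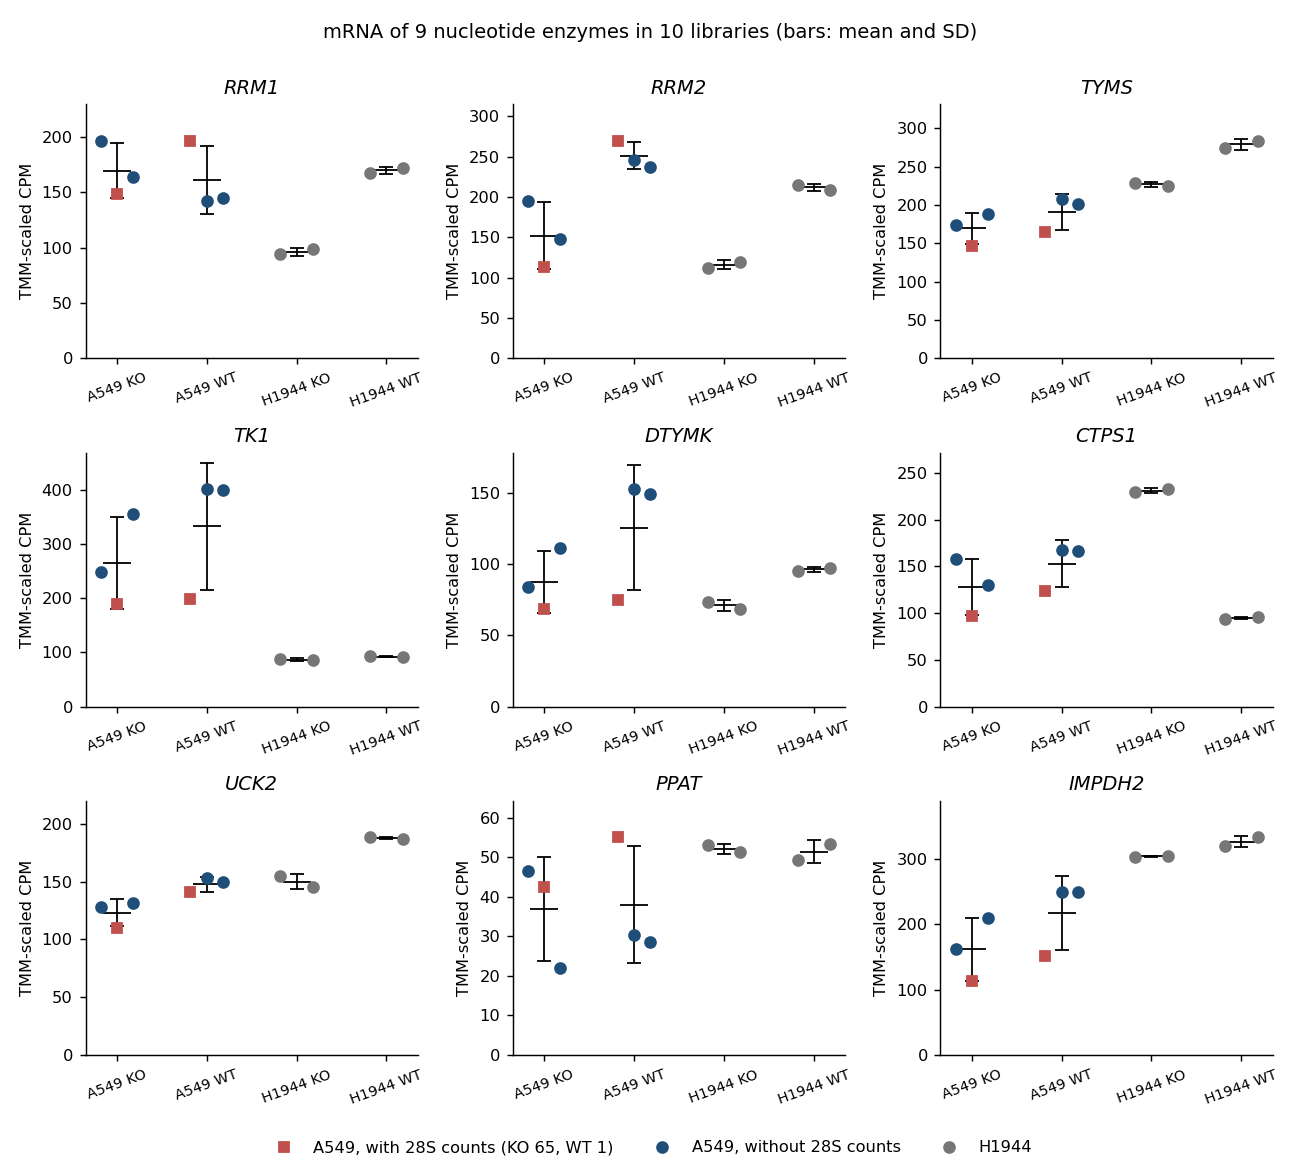
Level of each of the 9 mRNAs in every library, in CPM scaled within each line, with bars for the mean and SD (n = 3 per A549 group, n = 2 per H1944 group). In H1944, RRM1 and RRM2 lie lower in KO than in WT and CTPS1 lies higher, while A549 values of TK1, DTYMK and IMPDH2 spread with the library set.

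RRM2B, the p53-inducible small subunit that can replace RRM2 outside S phase, rose in H1944, with 150.4 and 156 CPM in KO, against 94.7 and 97.5 CPM in WT (log2 fold change 0.67, SE 0.040, edgeR adjusted p 2.29e-12). The direction was opposite to that of RRM2 in the same libraries. In A549 it had 85.9, 105 and 51.8 CPM in KO, against 73.3, 36.2 and 32.5 CPM in WT, with KO 66 below WT 1 (log2 fold change 0.77, edgeR adjusted p 0.952). Each A549 KO library was above the WT libraries of its own set. AC007240.1, on the same strand, overlaps exons of RRM2; RRM1-AS1, on the opposite strand, overlaps exons of RRM1, and the strand setting of the counting is not given in the sources used here.

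The thymidylate enzymes changed by less in H1944, and unequally. TYMS, thymidylate synthase (chromosome 18, 657604 to 673578), had 229 and 224 CPM in H1944 KO, against 274 and 284 CPM in H1944 WT, and fell to 0.812-fold (log2 fold change -0.30, SE 0.035, edgeR adjusted p 1.47e-07). DTYMK, thymidylate kinase, which phosphorylates the product of both TYMS and TK1 (chromosome 2, 241675742 to 241686991), had 73.5 and 68.3 CPM in H1944 KO, against 94.99 and 97.3 CPM in H1944 WT, and fell to 0.737-fold (log2 fold change -0.44, SE 0.046, edgeR adjusted p 2.84e-08). Both calls were lost when all 10 libraries were fitted together (adjusted p 0.349 for TYMS and 0.479 for DTYMK). TK1, the cytosolic thymidine kinase of salvage (chromosome 17, 78174075 to 78187233), had 88.5 and 85.3 CPM in H1944 KO, against 92.6 and 91.3 CPM in H1944 WT. The TK1 groups lay close together but did not overlap, and the difference did not pass (log2 fold change -0.08, SE 0.043, edgeR adjusted p 0.0945). TK2, the mitochondrial thymidine kinase, rose, with 26.9 and 28.2 CPM in H1944 KO, against 21.4 and 19.4 CPM in H1944 WT (log2 fold change 0.43, edgeR adjusted p 8.41e-05). The TK1 to TYMS count ratio was 0.387 and 0.380 in H1944 KO, against 0.338 and 0.322 in H1944 WT, and the A549 groups overlapped. ENOSF1 and TYMSOS, on the opposite strand, overlap exons of TYMS.

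In A549 none of the 3 passed, and TK1 and DTYMK varied with the library set. TK1 had 249, 189 and 357 CPM in KO, against 198, 402 and 400.1 CPM in WT. DTYMK had 83.6, 68.1 and 111 CPM in KO, against 74.8, 152 and 149 CPM in WT. TYMS had 173, 147 and 187 CPM in KO, against 164, 208 and 201 CPM in WT. KO and WT libraries overlapped for all 3 genes. Among WT libraries alone, those without 28S counts had 2.02 times the TK1 and DTYMK level of WT 1, a gap between libraries of 1 genotype. Within the sets TK1 differed by -0.07, -0.68 and -0.17 for KO 65, KO 16 and KO 66, and DTYMK by -0.13, -0.84 and -0.44. TYMS gave the narrowest range of the 3, -0.16, -0.24 and -0.13. The fold changes over all 6 libraries were -0.33, -0.52 and -0.18 for TK1, DTYMK and TYMS on the log2 scale, each with an edgeR adjusted p of 0.995.

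**Figure D2:**
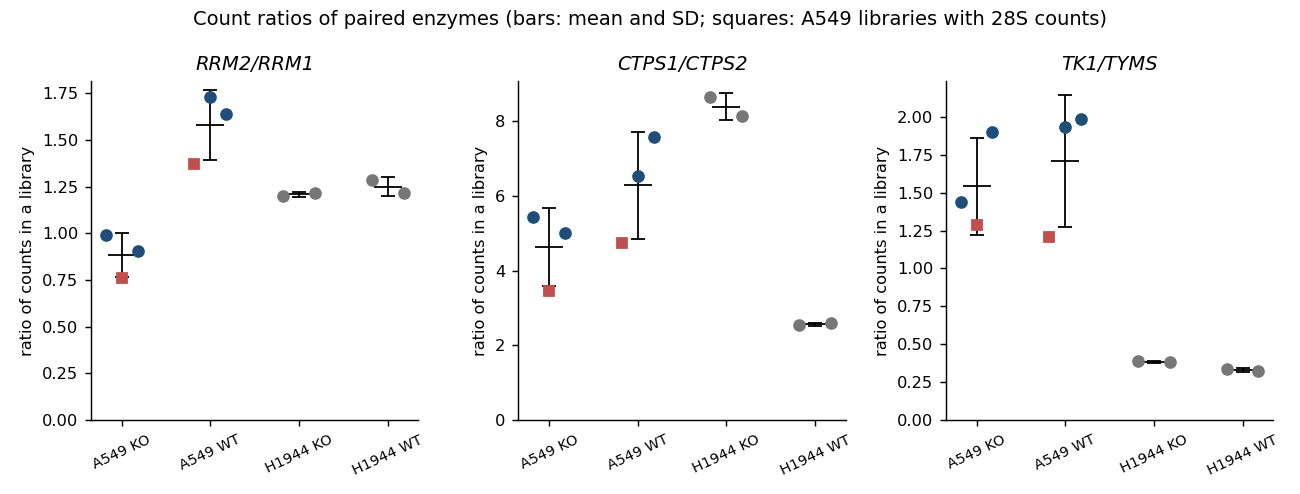
Ratio of the counts of paired enzymes within each library (bars: mean and SD, n = 3 per A549 group and 2 per H1944 group). The RRM2 to RRM1 ratio is below all WT values in each A549 KO library and overlaps in H1944, while the CTPS1 to CTPS2 ratio, at 8.65 and 8.13, is higher in H1944 KO than in H1944 WT.

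The cytidine and uridine enzymes moved in opposite directions in H1944. CTPS1, the CTP synthase of proliferating cells, which aminates UTP with glutamine nitrogen (chromosome 1, 40979335 to 41012565), had 229 and 233 CPM in H1944 KO, against 94.0 and 95.6 CPM in H1944 WT. The groups were far apart, and CTPS1 rose 2.44-fold (log2 fold change 1.28, SE 0.038, edgeR adjusted p 1.04e-17). It was the 1 member past a 2-fold change, and 10.1% of all H1944 genes rose at least that much and passed; 1266 of 16626 genes had a larger log2 fold change. Its paralog CTPS2 fell, with 26.5 and 28.6 CPM in H1944 KO, against 37.1 and 36.9 CPM in H1944 WT (log2 fold change -0.42, SE 0.070, edgeR adjusted p 1.63e-05). The CTPS1 to CTPS2 count ratio was 8.65 and 8.13 in H1944 KO, against 2.54 and 2.59 in H1944 WT. UCK2, the main uridine-cytidine kinase of salvage (chromosome 1, 165827531 to 165911618), had 155 and 145 CPM in H1944 KO, against 188 and 187 CPM in H1944 WT, and fell to 0.8-fold (log2 fold change -0.32, SE 0.039, edgeR adjusted p 2.39e-07). The UCK2 call was lost when all 10 libraries were fitted together (adjusted p 0.204). UCK1, the other kinase, fell too (log2 fold change -0.26, edgeR adjusted p 0.00753). TMCO1 and AL358115.1, on the opposite strand, and MIR3658, on the same strand, overlap UCK2 exons.

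CTPS1 did not show this rise in A549. It had 157, 96.8 and 130 CPM in A549 KO, against 124, 168 and 167 CPM in A549 WT, with overlapping libraries (log2 fold change -0.26, SE 0.24, edgeR adjusted p 0.995). Within the sets it was lower in KO 65, KO 16 and KO 66, by -0.35, -0.09 and -0.36. The difference between lines was itself tested: the A549 change minus the H1944 change was -1.58 on the log2 scale (SE 0.31, edgeR adjusted p 0.0184). CTPS1 was the 1 of 9 members called, against 6.95% of all 17677 genes tested (4.1% with the A549 change higher, 2.85% with it lower). DESeq2 called 2 of 9 (CTPS1 and RRM1), against 13.1% of all genes. The call was lost without A549 WT 3 (adjusted p 0.0505), H1944 KO 1 (0.0852), H1944 KO 2 (0.086), H1944 WT 1 (0.101) or H1944 WT 2 (0.102), while the difference stayed between -1.73 and -1.42 whichever library was left out. UCK2 had 128, 110.2 and 132 CPM in A549 KO, against 141, 153 and 149 CPM in A549 WT. Its KO libraries all lay below WT, as for RRM2, and within the sets they differed by -0.35 for KO 65, -0.24 for KO 16 and -0.20 for KO 66 (log2 fold change -0.26, SE 0.16, edgeR adjusted p 0.995; exact 2-sided permutation p 0.1).

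The purine members changed little in H1944. PPAT, the amidophosphoribosyltransferase that commits to purine ring synthesis (chromosome 4, 56393362 to 56435615), had 53.1 and 51.3 CPM in H1944 KO, against 49.4 and 53.5 CPM in H1944 WT, and the libraries overlapped (log2 fold change 0.02, SE 0.057, edgeR adjusted p 0.748). IMPDH2, the inosine monophosphate dehydrogenase isoform of proliferating cells, which opens the branch to guanine nucleotides (chromosome 3, 49024325 to 49029408), had 304 and 305 CPM in H1944 KO, against 321 and 333 CPM in H1944 WT. It fell to 0.931-fold (log2 fold change -0.10, SE 0.034, edgeR adjusted p 0.011), but did not pass without H1944 KO 1 (adjusted p 0.141) or KO 2 (0.0997), or when all 10 libraries were fitted together (0.886). Its paralog IMPDH1 rose 2.04-fold, with 30.7 and 30.0 CPM in H1944 KO, against 15.1 and 14.5 CPM in H1944 WT (log2 fold change 1.03, SE 0.082, edgeR adjusted p 3.30e-10).

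In A549 PPAT had 46.5, 42.4 and 22.1 CPM in KO, against 55.1, 30.3 and 28.7 CPM in WT. IMPDH2 had 162, 113 and 210.4 CPM in KO, against 151, 249.8 and 249.7 CPM in WT. Both overlapped between genotypes and neither passed (log2 fold changes -0.04 and -0.42, each at an edgeR adjusted p of 0.995). The WT libraries without 28S counts had 0.535 times the PPAT level and 1.65 times the IMPDH2 level of WT 1. Against WT of the same set, PPAT gave -0.37 for KO 65, 0.64 for KO 16 and -0.40 for KO 66, so the libraries lay on both sides of WT. IMPDH2 gave -0.42, -0.62 and -0.25 in that order. Exons of PPAT and IMPDH2 also overlap a gene on the opposite strand, AC068620.2 for PPAT and AC137630.3 for IMPDH2. IMPDH1 had 86.6, 97.7 and 143 CPM in A549 KO, against 105, 146 and 141 CPM in A549 WT.

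**Figure D3:**
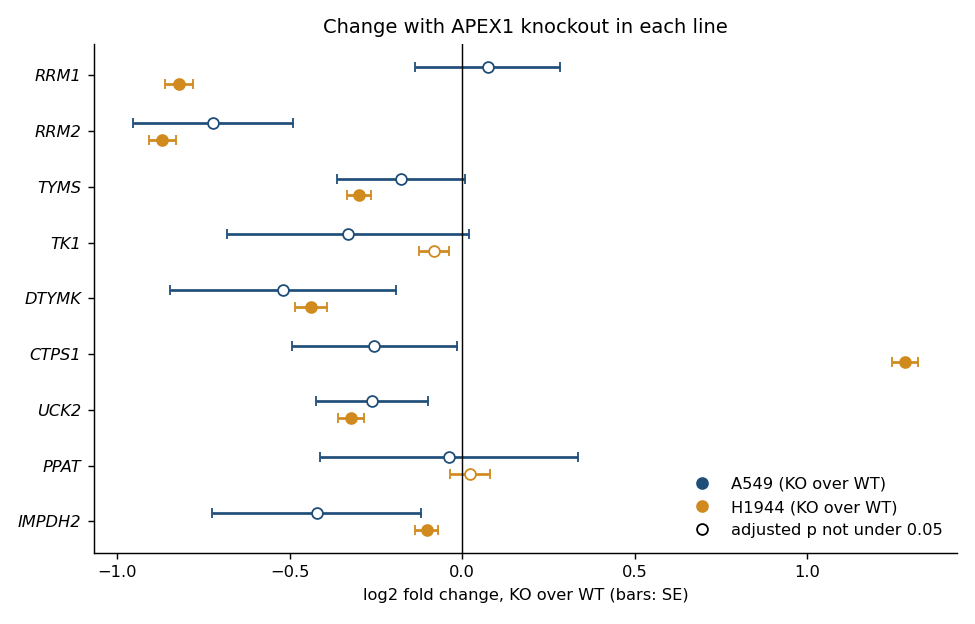
Log2 fold change of each member, KO over WT, in A549 and H1944, with SE as bars; filled points passed an edgeR adjusted p of 0.05. In H1944 6 members are filled below 0 and CTPS1 is filled at 1.28, while no A549 point is filled.

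Over the 9 members, 7 passed in H1944 and 0 in A549. The SEs of their log2 fold changes were 0.034 to 0.057 in H1944 and 0.16 to 0.37 in A549. For TYMS, DTYMK, UCK2 and IMPDH2 the difference between lines did not pass (edgeR adjusted p 0.876, 0.927, 0.961 and 0.672). The falls of these genes are therefore not shown to be particular to H1944. In H1944 1 rose and 6 fell, where 67.1% of all 16626 tested genes passed, 33.2% higher and 33.9% lower, so the share of members called is close to that of all genes. DESeq2 also called 7, against 56.0% of all genes. KO and WT libraries did not overlap for 8 of the 9, against 82.5% of all genes (41.1% above and 41.4% below WT). The median log2 fold change of the 9 was -0.30, beside -0.01 over all genes. When all 10 libraries were fitted together 3 members passed in H1944 (RRM1, RRM2 and CTPS1), against 14.3% of all genes. In A549 0.00633% of all 15806 genes passed, 1 gene, and the median of the 9 was -0.26, beside 0.02 over all genes. Of the 9, 1 (RRM2) had an unadjusted edgeR p under 0.05, against 5.66% of all genes, and neither DESeq2, which called 0.791% of all genes, nor limma-voom called a member. RRM2 and UCK2 were the 2 members with KO libraries all below WT, against 4.6% of all genes, and 0 members had them all above WT, against 6.11%. Within the sets 7 of 9 members, all but RRM1 and PPAT, were below WT in KO 16, KO 65 and KO 66 alike, against 16.8% of all genes; KO 16 and KO 66 share their WT libraries.

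**Figure D4:**
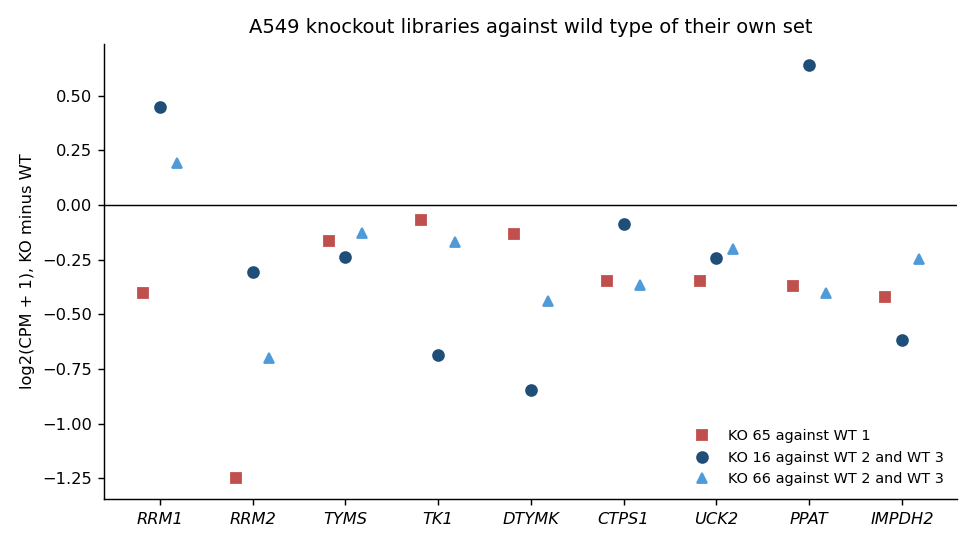
Difference of each A549 KO library from the WT libraries of its own set, in log2(CPM + 1). All 3 KO libraries lie below 0 for 7 members, with RRM2 at -1.25, -0.31 and -0.70 for KO 65, KO 16 and KO 66, while RRM1 and PPAT have libraries on both sides.

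Levels per kilobase of exon (GENCODE release 29) set the members in order. In H1944 KO they were IMPDH2 at 185 CPM per kb, TYMS at 136, DTYMK at 57.5, TK1 at 50.3, CTPS1 at 39.9, RRM2 at 30.1, RRM1 at 28.6, UCK2 at 26.2 and PPAT at 14.2, and only RRM2 and RRM1 overlapped. In H1944 WT the order was IMPDH2 at 199, TYMS at 168, DTYMK at 78.0, RRM2 at 54.96, TK1 at 53.3, RRM1 at 50.5, UCK2 at 32.7, CTPS1 at 16.4 and PPAT at 13.97, with no neighbours overlapping. CTPS1 thus stood in the fifth place in KO, against the eighth in WT. In A549 TK1 came first in both genotypes, at 153 CPM per kb in KO and 193 in WT, and PPAT last, at 10.1 in KO and 10.3 in WT. IMPDH2, TYMS and DTYMK overlapped each other there in both genotypes. RRM2 per kilobase was above RRM1 and apart from it in A549 WT (65.03 against 48.0). In A549 KO their ranges overlapped (39.4 against 50.5), but RRM2 was below RRM1 within each library. The values were 50.6 against 58.5 in KO 16, 29.3 against 44.2 in KO 65 and 38.4 against 48.8 in KO 66.

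The wider pathway was read through 9 lists of 142 genes in all, chosen with earlier results known. In H1944 115 of 137 tested list genes passed, 83.9%, beside 67.1% of all genes, 33.2% higher and 33.9% lower. In A549 edgeR and limma-voom called 0 of 135 and DESeq2 called 2 (CDKN1A and MYC), while edgeR gave 10 an unadjusted p under 0.05, which 5.66% of all genes had. The A549 list medians lay between -0.28 (deoxynucleotide supply) and 0.10 (purine salvage), beside 0.02 over all genes. Deoxynucleotide supply was divided in H1944: 12 of 24 genes rose and 8 fell, 5 of the 24 being members described above, with a median log2 fold change of 0.07. DCTD, the dCMP deaminase that feeds TYMS, rose (0.58), and so did NME1, a nucleoside diphosphate kinase (0.45). NME1 and NME2 are adjacent and nearly identical, so reads may have been shared.

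Folate one-carbon genes leaned lower in H1944, with 5 of 24 tested genes higher, 15 lower and a median of -0.35. For this and the pyrimidine lists, the shares over all H1944 genes were 33.2% higher and 33.9% lower. GCSH and DLD, parts of the glycine cleavage system, fell by 1.51 and by 0.95 on the log2 scale (edgeR adjusted p 5.44e-17 and 1.00e-14). SHMT2 and MTHFD2, of the mitochondrial branch, fell by 0.53 and 0.42. SLC19A1, the reduced folate carrier, rose 2.18-fold, with 81.8 ± 4.74 CPM in KO and 37.4 ± 0.874 CPM in WT (SD, n = 2 each; edgeR adjusted p 9.97e-14). Of 8 genes of pyrimidine and CTP synthesis 3 rose and 2 fell, with UMPS, which makes UMP, at -0.14 (edgeR adjusted p 0.0332). CAD and DHODH, the earlier steps, did not pass (log2 fold changes -0.02 and 0.17, edgeR adjusted p 0.773 and 0.120). Of 12 tested genes of pyrimidine salvage 3 rose and 8 fell, with SLC29A1, a nucleoside transporter, at 0.51, UCKL1 at 0.69, TYMP, which splits thymidine, at -0.28 and SLC29A2 at -0.22.

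The purine lists had medians above that of all genes in H1944, where 33.2% of all tested genes rose and 33.9% fell. Of the 8 genes of ring synthesis 3 rose and 1 fell: ADSL, ATIC and PRPS1 rose by 0.48, 0.37 and 0.29 on the log2 scale, and PAICS fell by 0.08. The other 4 did not pass, and 3 of 8 is close to the share of all genes that rose. Of 12 genes from IMP to AMP and GMP 7 rose and 3 fell, with AK4, a mitochondrial adenylate kinase, at 1.94, GMPR2 at 0.60 and ADSS2 at -0.24. In purine salvage and breakdown 6 of 11 rose and 3 fell. ADK, adenosine kinase, rose by 1.38, ADA, adenosine deaminase, by 1.22, NT5E, the ecto-nucleotidase CD73, by 1.04 and AMPD2, an AMP deaminase, by 0.64. Their medians were 0.07, 0.19 and 0.25, beside -0.01 over all genes.

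Most proliferation genes fell in H1944, as did RRM1, RRM2, TYMS, DTYMK, UCK2 and IMPDH2. Among the other members TK1 and PPAT did not pass there and CTPS1 rose. Of 28 S phase and mitosis genes 26 fell and 1 (CCNE1) rose, with a median of -0.64. Over all H1944 genes 33.9% fell and 33.2% rose. MKI67 fell to 107 ± 0.415 CPM in H1944 KO, against 275 ± 9.74 CPM in H1944 WT (SD, n = 2 each; edgeR adjusted p 4.07e-18). TOP2A, MCM4 and MCM7 fell by 1.20, 1.12 and 1.10 on the log2 scale. The summed level of the 28 was 2518 to 2531 CPM in H1944 KO and 4159 CPM or more in H1944 WT. In A549 0 of 28 passed by edgeR, the median was -0.18, and the sum was 3644 to 5165 CPM in KO and 5011 CPM or more in WT. Of 18 tested regulators 4 rose and 11 fell in H1944. CDKN1A, the p53 target that arrests the cycle, rose 7.26-fold in H1944 (edgeR adjusted p 7.91e-24), and averaged 248 ± 81.0 CPM in A549 KO and 96.7 ± 10.4 CPM in A549 WT (SD, n = 3 each; edgeR adjusted p 0.521). MYC, an activator of nucleotide synthesis genes, rose by 0.45 in H1944 and had a log2 fold change of -0.52 in A549 (edgeR adjusted p 0.673), and the difference between lines passed (-0.99, SE 0.17, edgeR adjusted p 0.0103), but not without H1944 KO 1 (0.0817), KO 2 (0.0721), WT 1 (0.081) or WT 2 (0.0836). FOXM1 and E2F8 fell by 0.73 and 1.61, and E2F4 rose by 0.70. The part of proliferation in the falls of the members was not tested.

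**Figure D5:**
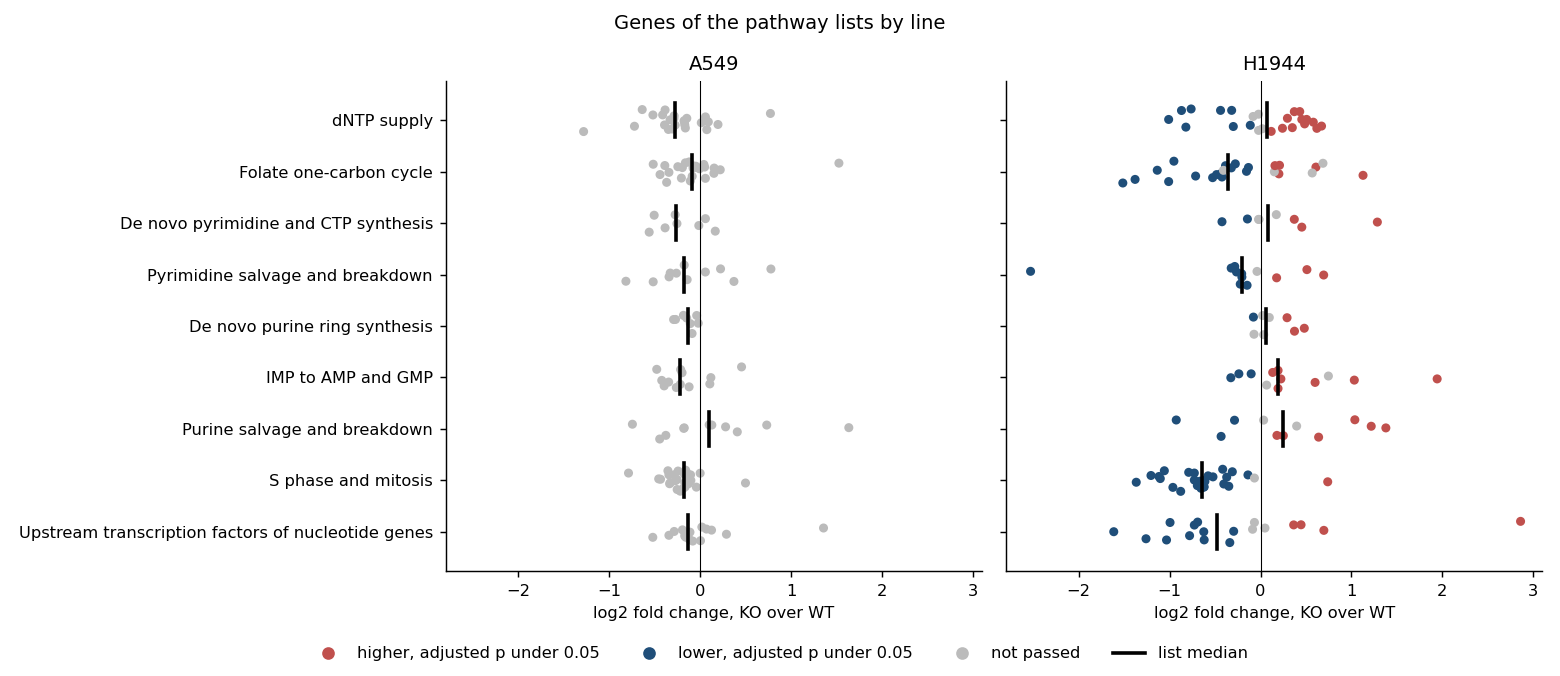
Log2 fold change, KO over WT, of every tested gene in the 9 lists, by line, with the list medians as bars. In H1944 S phase and mitosis genes lie almost all below 0 (26 of 28 lower), folate genes mostly below 0 (15 of 24 lower), and the purine lists have medians of 0.07 to 0.25, while no list gene passed in A549 by edgeR.

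Genes whose profile over the 10 libraries lay closest to each member were found by the root mean square difference of log2 CPM centred within each line, among 14984 others tested in both lines. For RRM1 they were CEP70 and FANCI (0.057 and 0.061), and for RRM2 EFHB and RTN4RL2 (0.101 and 0.110). TYMS was closest to EIF2B1 and ATP5F1B, TK1 to PPP1R7 and DCTN3, and DTYMK to POC1A and AURKB, a mitotic kinase gene. CTPS1 was closest to MOK (0.114), the most distant nearest gene of the 9 members. UCK2 was closest to HIRA and SRSF2, PPAT to USP12 and SEPTIN10, and IMPDH2 to SGF29 and CNTROB. Between members the closest pairs were TYMS with UCK2 (0.071) and TK1 with IMPDH2 (0.099). The libraries share genotype and, in A549, library set, so these distances describe likeness only.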

How the data were processed

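Poly(A) RNA of A549 and H1944 was sequenced as 150 bp paired-end reads, per the labels' protocols. The authors deposited raw counts per gene symbol, 1 table per line. Trim Galore 0.5.0, HISAT2 2.1.0, featureCounts 1.6.4, DESeq2 and hg38 are named in the submitters' processing notes; annotation, strand and the handling of reads with several alignments are not given in the sources used here. Genes were kept by filterByExpr (minimum count 10), scaled by TMM and tested within each line by edgeR 4.0.16 (glmQLFit, robust, and glmQLFTest; R 4.3.3), with Benjamini-Hochberg adjustment over all tested genes and a threshold of 0.05. The difference between lines was an interaction term over all 10 libraries. Alternatives used DESeq2 1.42.0, limma-voom (limma 3.58.1), RLE scaling, no filter, library sets and left-out libraries. Fits were run on simulated counts as a check of recovered fold changes. Those counts were drawn as independent libraries without the A549 library sets, so the p-values were not checked this way. SE was derived from the log2 fold change and the F statistic. Nothing says that libraries came from separate cultures, so p-values reflect only library-to-library spread, possibly technical. With 2 against 2 libraries an exact permutation p cannot go below 0.333. The members and lists were chosen with earlier results of these data known. Other named genes are the 4 of each list with the smallest adjusted p in H1944, the members' paralogs and partners, APEX1 and the closest profiles; some of these are not reported here. MYC, CCNE1, CD68, CAD, DHODH, SHMT2 and MTHFD2 were named after their values were seen. Gene positions are from GENCODE release 29 (GRCh38).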

Additional observations from a re-analysis of the deposited data

Results flagged for a closer look

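The change of CTPS1 with APE1 knockout differed between the lines by a test of the difference itself (A549 change minus H1944 change, -1.58 on the log2 scale, SE 0.31, edgeR adjusted p 0.0184). The call was lost without A549 WT 3 or any 1 H1944 library (adjusted p 0.0505 to 0.102). It was higher in 2 of 2 H1944 KO libraries and lower in 3 of 3 A549 KO libraries against WT of their own set. The A549 fall alone did not pass.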

How the results depend on the processing

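In A549 the count of genes past the threshold was 2 without the low-count filter, 125 by DESeq2, 16 in 1 fit of all 10 libraries, 2 with the library set as a covariate, 0 in the 4 libraries without 28S counts and 0 whichever library was left out, against 1; the count of members stayed at 0, and that of list genes was 2 by DESeq2. In H1944 1 fit of all 10 libraries called 2522 genes, 3 members and 23 list genes, against 11164, 7 and 115. There TYMS, DTYMK, UCK2 and IMPDH2 no longer passed (adjusted p 0.349, 0.479, 0.204 and 0.886). For the difference between lines DESeq2 called 2318 genes and the fit with the library set 2759, each with 2 members (CTPS1 and RRM1), against 1228 and 1. Leaving out 1 library gave 397 to 2892 genes, lowest without H1944 KO 1 and highest without A549 WT 1, and 0 to 2 members; the count moved by over 1.5 times without any 1 of the A549 WT or H1944 libraries, and by less without any 1 of the A549 KO libraries. PPAT in A549 turned to 0.020 with the set as a covariate and 0.17 in the 4 libraries. Over left-out libraries the log2 fold change ran from -0.047 to 0.24 for RRM1 and from -0.24 to 0.33 for PPAT in A549, and from -0.038 to 0.080 for PPAT in H1944. For the difference it ran from -0.078 to 0.28 for RRM2, -0.023 to 0.18 for TYMS, -0.39 to 0.057 for DTYMK, -0.024 to 0.097 for UCK2 and -0.25 to 0.26 for PPAT. The cause of these changes was not tested. In H1944 a replicate block gave 11228 genes and 7 members; KO and WT libraries with the same number deviated from their group means with a correlation of 0.034 across genes, over 2 pairs, and were not taken as pairs. No paired analysis was possible in A549 because the KO columns carry no replicate number of the labels.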
